A study of Mus musculus with 15 samples.

Results

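The rare T-cell receptor beta (TCRβ) variable (V) families TRBV23, TRBV24, TRBV26 and TRBV30 and the families TRBV8, TRBV9, TRBV10 and TRBV21, named here as pseudogenes, were described in clonotype tables of CD8 T cells of NOD (non-obese diabetic) mice, which become diabetic through autoimmunity. Every entry whose deposited V call was one of these 8 names was taken. They made up 474 of 59364 clonotypes (0.798%) and 1223 of 347293 counts (0.352%), with 436 clonotypes in the rare families and 38 under the pseudogene names. Entries of a library that differed in V family, J cluster or nucleotide CDR3 were counted as separate clonotypes. The count of a clonotype was the number that the authors deposited for it.

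Libraries came from 125-day-old NOD mice that carried a mutation of Ifngr1, a chain of the interferon-γ receptor (mutant), or from wild-type NOD mice (WT). Spleen and non-draining lymph nodes were pooled per mouse and stained with a tetramer of H-2Kd that displayed a peptide of IGRP, a beta-cell protein attacked in this disease. The TET libraries were made from the cells retained by the tetramer, and the CD8 libraries from CD8+CD44+ cells of the flow-through. The groups were mutant TET (n = 4), WT TET (n = 3), mutant CD8 (n = 4) and WT CD8 (n = 4), each library from 1 mouse. The sample titles name Ifngr1 and tag the mutant libraries GKO and the wild-type libraries WT. Beyond that tag the labels do not describe the mutation. Tables of V calls hold no other gene by which the cell type or the mutation could be checked.

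Depth differed between the groups. Libraries held 393 to 2199 clonotypes in mutant TET, 97 to 126 in WT TET, 4502 to 9827 in mutant CD8 and 2040 to 8596 in WT CD8, from 17294 to 60164, 2536 to 14958, 20909 to 32856 and 17116 to 27836 counts in the same order. WT CD8 1 was the CD8 library with the fewest clonotypes (2040). Mutant TET 4 and WT TET 2 shared 18 clonotypes, while the other pairs of a mutant and a WT TET library shared 2 to 8. Most values that rest on either are therefore also given without it. Whether the counts are reads or molecules is not stated, and intervals and upper limits therefore describe counting error alone.

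A TCRβ chain is assembled when a V segment is joined to a diversity (D) and a joining (J) segment, and the junction forms the CDR3, the loop that contacts the peptide. The CDR3 normally begins at a cysteine encoded by the V segment and ends at a phenylalanine of the J segment. The J segments lie in 2 clusters, TRBJ1 upstream of TRBJ2, each behind its own D segment. In mice, superantigens of endogenous mammary tumour viruses bind whole V families and remove thymocytes that carry them. TRBV26, the family called Vβ3 in the older literature, is among the families such superantigens are known to recognise. A pseudogene V segment cannot encode a working chain.

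The position of the segments was taken from RefSeq (assembly GRCm38.p6), by symbol only, since the build of the tables is not given in the sources used here. Each of the 8 names matched a segment on chromosome 6. Trbv8, Trbv9 and Trbv10 follow each other between Trbv7 and Trbv11 and are annotated as V segment pseudogenes. Trbv21, grouped here with the pseudogenes, is annotated there as a V segment, between Trbv20 and the pseudogene Trbv22. Trbv23 and Trbv24 are neighbours, Trbv26 lies between the pseudogenes Trbv25 and Trbv27, and Trbv30 lies between Trbv29 and Trbv31, the last V segment of that order. RefSeq describes a reference assembly and not the NOD strain, and it also marks Trbv29 as a pseudogene although TRBV29 was a common family in these tables, with 3242 clonotypes in the CD8 libraries.

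The CDR3s that separated the rare families are shown by the largest clonotype of each, with the first codon in capitals. TRBV30 had 2 clonotypes tied for its largest count.
TRBV26, 12 counts in WT CD8 2: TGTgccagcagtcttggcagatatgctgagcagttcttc
TRBV30, 8 counts in mutant CD8 4: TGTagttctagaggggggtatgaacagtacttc
TRBV30, 8 counts in mutant CD8 4: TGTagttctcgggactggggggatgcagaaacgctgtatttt
TRBV24, 15 counts in WT CD8 1: TGTgccagcaggaacgaaagattatttttc
TRBV23, 319 counts in mutant TET 3: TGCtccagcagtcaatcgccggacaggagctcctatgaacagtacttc
The TRBV26 and TRBV24 CDR3s opened with the TGTgccagc that many families share, whereas those of TRBV30 and TRBV23 opened with letters of their own. The stretch TGTagttctag began 145 of 186 TRBV30 clonotypes, and TGCtccagc began 14 of 15 TRBV23 clonotypes. Neither stretch began any of the 58890 clonotypes of the other 15 families. Translated, 168 of 215 TRBV26 clonotypes began with cysteine, alanine, serine, serine, and 103 of them went on with leucine. TRBV24 began with the same 4 residues in 16 of 20 clonotypes. TRBV30 began with cysteine, serine, serine, arginine in 134 of 186, and TRBV23 with cysteine followed by 3 serines in 13 of 15.

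TRBV26 and TRBV30 were present in each of the 8 CD8 libraries, below 1% of the clonotypes. In RNA of sorted cells, fewer cells with a receptor and less of its RNA per cell cannot be told apart. TRBV26 had 17, 22, 49 and 41 clonotypes in the mutant CD8 libraries 1 to 4, and 8, 23, 28 and 23 in the WT CD8 libraries. As a share of the library's clonotypes this was 0.405% ± 0.0756 in mutant CD8 and 0.373% ± 0.0726 in WT CD8 (SD, n = 4 each), and the ranges of the strains overlapped (0.323% to 0.503% and 0.268% to 0.433%). TRBV30 had 19, 15, 34 and 31 clonotypes in the mutant CD8 libraries and 3, 16, 20 and 25 in the WT CD8 libraries. Its share was 0.327% ± 0.0837 in mutant CD8 and 0.256% ± 0.0731 in WT CD8 (SD, n = 4 each), and WT CD8 1, with 3 clonotypes (0.147%, 95% Clopper-Pearson interval 0.0303% to 0.429%), lay below the other WT libraries.

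The strain difference in CD8 was tested over all families that passed a minimum count of 10 (edgeR's filterByExpr), with each clonotype counted once and the number of clonotypes as library size. Of the 17 families tested none was called (0%) at an adjusted p under 0.05 by edgeR's quasi-likelihood test. No family had an unadjusted p under 0.05 either, and DESeq2 called none. The log2 fold change, mutant over WT, was 0.21 (SE 0.21, adjusted p = 0.671, edgeR) for TRBV26 and 0.20 (SE 0.23, adjusted p = 0.671, edgeR) for TRBV30. For TRBV26 it fell to -0.23 without single-count clonotypes (adjusted p = 0.757, edgeR), so its direction was not settled. For TRBV30 the same change gave 0.74 (adjusted p = 0.747, edgeR).

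TRBV24 and TRBV23 were rarer still. TRBV24 had 4, 0, 5 and 3 clonotypes in the mutant CD8 libraries and 2, 1, 2 and 2 in the WT CD8 libraries. TRBV23 had 0, 1, 4 and 0 clonotypes in the mutant CD8 libraries and 1, 2, 1 and 2 in the WT CD8 libraries. Neither passed the filter on low values. With all 23 families kept, the log2 fold change was 0.33 (SE 0.71) for TRBV24 and -0.64 (SE 0.86) for TRBV23, both with an adjusted p = 0.718 or higher by edgeR, in a fit that called 0% of families and had 0 at an unadjusted p under 0.05.

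**Figure D1:**
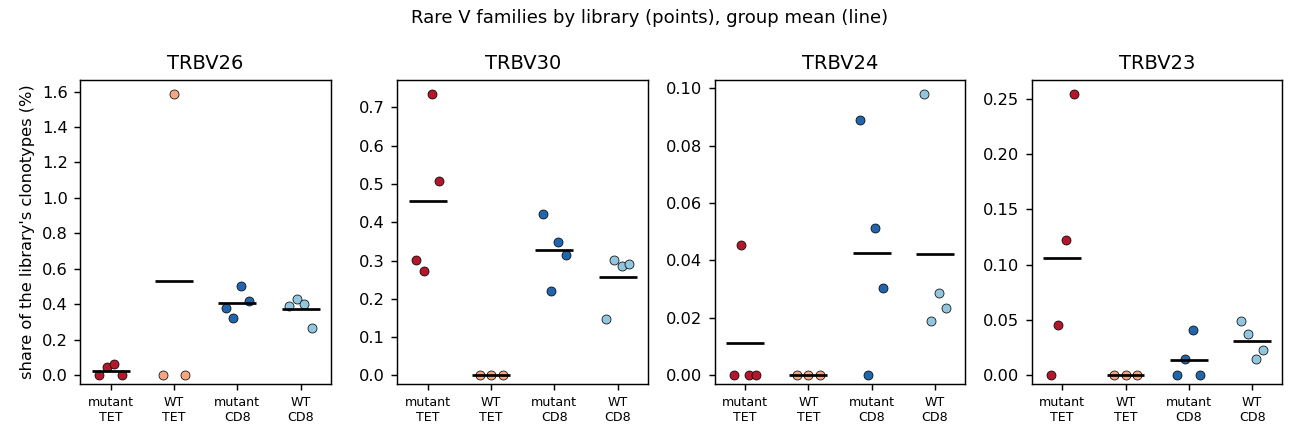
Share of the library's clonotypes (%, vertical axis, a separate linear scale per panel) for the 4 rare families in mutant TET, WT TET, mutant CD8 and WT CD8 libraries. Points are libraries and lines are group means; TRBV26 lies between 0.268% and 0.503% in every CD8 library but at most at 0.0613% in mutant TET, and TRBV30 is at 0% in the 3 WT TET libraries.

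The families whose share varied most like these across the 8 CD8 libraries were TRBV20 for TRBV26 (Pearson r = 0.543) and TRBV1 for TRBV30 (Pearson r = 0.602). Each had the highest Pearson r of 15 families compared. By ranks the values were lower, at a Spearman rho of 0.524 for TRBV20 with TRBV26 and 0.333 for TRBV1 with TRBV30. These are descriptions over 8 libraries that differ in depth and sum to the same total. Among the families not listed here, the next were TRBV31 for TRBV26 (r = 0.454) and TRBV5 for TRBV30 (r = 0.423), so neither family stood far above the next.

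Tetramer binders held few TRBV26 clonotypes in the mutant mice. TRBV26 had 0, 1, 1 and 0 clonotypes in the mutant TET libraries and 0, 2 and 0 in the WT TET libraries, against 8 to 49 in the CD8 libraries. The pooled share was 2 of 5220 clonotypes (0.0383%) in mutant TET and 2 of 325 (0.615%) in WT TET. Both WT TET clonotypes came from WT TET 2, had 1 count each and differed from each other by 1 substitution. TRBV26 did not pass the filter on low values in the comparison of TET with CD8, in which 13 of 15 families were called (86.7%), 40% of those tested as higher and 46.7% as lower in TET.

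With all 23 families kept, 14 were called (60.9%), 26.1% higher and 34.8% lower in TET. TRBV26 was lower in TET at a log2 fold change of -2.44, with strain as a covariate (SE 0.58, adjusted p = 6.96e-05, edgeR). It stayed lower and past the threshold with each of the 15 libraries left out, at -2.14 to -3.39. Leaving out WT TET 2 gave -3.39 (adjusted p = 5.28e-06, edgeR), and leaving out mutant TET 4 gave -2.34 (adjusted p = 0.000179, edgeR). In the mutant libraries alone the value was -3.35 (adjusted p = 2.88e-05, edgeR). In the WT libraries alone it was 0.77 (SE 1.15, adjusted p = 0.756, edgeR), so the call rests on the mutant mice. The difference between the strains in this effect had a log2 value of -4.11 (SE 1.69, adjusted p = 0.198 over 23 families, edgeR) and was not called. The WT value and the strain difference rest on the 2 single-count clonotypes of WT TET 2, and neither was fitted without that library. Among 325 WT TET clonotypes even 0 would allow a share of up to 0.923%, above the 0.373% of WT CD8. A lower level in WT TET was therefore not detectable at this depth.

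TRBV26 belongs to a list of 8 families known from mice as superantigen targets, TRBV12, TRBV15, TRBV16, TRBV17, TRBV19, TRBV26, TRBV29 and TRBV31, set with earlier results of these data known. The other 7 were tested in TET against CD8. Of these, 5 were lower in TET and 1 was higher, beside 46.7% and 40% of all families tested. TRBV12 had the lowest log2 fold change (-6.41), before TRBV16 (-4.10), TRBV15 (-3.29), TRBV17 (-1.45) and TRBV29 (-0.88). TRBV31 was higher, at 1.79, and TRBV19 had a value of 0.08 that did not pass the test (adjusted p = 0.497, edgeR). The median over the 7 was -1.45, against -0.0014 over all 15 families tested, which include the 7. Because the list was set with earlier results known, these values describe it and test nothing about superantigens. In the CD8 libraries, none of the 8 was called between mutant and WT mice.

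TRBV30 was found in all mutant TET libraries and in no WT TET library. It had 3, 6, 12 and 2 clonotypes in the mutant TET libraries, a share of 0.455% ± 0.215 (SD, n = 4), and 0 in WT TET. The pooled share in mutant TET was 23 of 5220 (0.441%), and 0 of 325 clonotypes in WT TET allows a share of up to 0.923%, so a difference between the strains was not detectable at this depth. The mutant TET share overlapped that of the mutant CD8 libraries (0.327% ± 0.0837, SD, n = 4). With all families kept, the log2 fold change of TRBV30, TET over CD8, was 0.36 (SE 0.37, adjusted p = 0.423, edgeR), and without mutant TET 3 it was -0.18 (adjusted p = 0.743, edgeR). Leaving out mutant TET 4 gave 0.34 and leaving out WT TET 2 gave 0.40, neither past the test. Weighted by counts the value was -2.60 (adjusted p = 0.0102, edgeR), with 48 of 121872 counts in mutant TET. That fit called 52.2% of the 23 families, 4.35% as higher and 47.8% as lower. TRBV30 clonotypes were small in both fractions: 52.2% in TET and 57.7% in CD8 had a single count, and the largest had 5 and 8. TRBV13 held a mean of 83.3% of the counts in TET libraries and 49.0% in CD8 libraries. Its part in the values weighted by counts, here and for the other members, was not tested. Only 1 TRBV30 CDR3 was seen in both fractions.

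The 2 TRBV30 CDR3s seen in more than 1 library are shown because they are the only ones shared.
TRBV30, 2 counts in mutant TET 1 and 5 in mutant TET 2: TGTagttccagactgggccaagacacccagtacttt
TRBV30, 2 counts in mutant TET 3 and 1 in mutant CD8 4: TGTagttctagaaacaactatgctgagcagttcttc
They were 2 of 184 distinct TRBV30 CDR3s (1.09%). Of 215 TRBV26 clonotypes, none was shared between libraries, and of the distinct clonotypes of the other 15 families 1934 of 56584 (3.42%) were. Sharing depends on how many clonotypes were sampled, and the difference was not tested.

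TRBV24 had 1 clonotype in mutant TET 2, with 2 counts, and none in the other TET libraries. Its log2 fold change, TET over CD8 with all families kept, was -0.98 (SE 1.30, adjusted p = 0.533, edgeR), and without mutant TET 2 it is a fit against 0 clonotypes. Weighted by counts TRBV24 was lower in TET (-3.68, adjusted p = 0.0177, edgeR), while without single-count clonotypes its direction turned (0.60, adjusted p = 0.699, edgeR). TRBV23 had 0, 1, 2 and 1 clonotypes in the mutant TET libraries and none in WT TET. For TRBV23 the log2 fold change, TET over CD8 with all families kept, was 1.85 (SE 0.99, adjusted p = 0.0964, edgeR), which did not pass the test. It passed without mutant CD8 3, the library with the most TRBV23 clonotypes of its fraction (2.67, adjusted p = 0.0210, edgeR). Leaving out mutant TET 4 gave 1.58 (adjusted p = 0.227, edgeR) and leaving out WT TET 2 gave 1.93 (adjusted p = 0.0815, edgeR). In WT TET, 0 of 325 clonotypes allows a share of up to 0.923% for each of TRBV23 and TRBV24.

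Among all members only 1 clonotype was large. The TRBV23 CDR3 printed above, which uses a TRBJ2 segment and is 16 residues long, had 319 counts in mutant TET 3. This was 1.45% of the library's counts (95% Clopper-Pearson interval 1.30% to 1.62%). It ranked 8 among 1631 clonotypes, and 2 among those outside TRBV13, the most common family. Mutant CD8 3, from the same mouse, held it at 5 counts (0.0202%, interval 0.00657% to 0.0472%). The clonotype was picked for its count in mutant TET 3, so these values are a description with no test. It also had 1 count in mutant TET 4 and 2 counts in WT CD8 1. The other TRBV23 clonotype of mutant TET 3, with 7 counts, differed by 3 missing nucleotides in the middle and is shown for comparison.
TRBV23, 7 counts in mutant TET 3: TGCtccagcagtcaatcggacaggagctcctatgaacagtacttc
The share of TRBV23 in the counts of mutant TET was therefore set by 1 library: it was 1.48% in mutant TET 3, while mutant TET 1, 2 and 4 had 0%, 0.00445% and 0.00166%.

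In the CD8 libraries, TRBV30 was joined to the first J cluster less often than the other families of the same library. For each family, the share of clonotypes with a TRBJ1 segment was compared with that of all other families of the same library, over the 17 families with at least 3 clonotypes in every CD8 library. TRBV30 used TRBJ1 in 15.8%, 6.67%, 14.7% and 22.6% of its clonotypes in the mutant CD8 libraries, against 28.6%, 27.0%, 27.9% and 25.7% in the other families. In the WT CD8 libraries its shares were 0%, 12.5%, 20% and 12%, against 27.2%, 30.4%, 30.7% and 28.4% in the other families. TRBV30 was lower in 8 of 8 libraries, although mutant CD8 4 had a gap of only 3.09 points.

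The mean TRBJ1 share was 13% ± 7.19 for TRBV30 and 28.3% ± 1.70 for the other families (SD, n = 8), a difference of -15.2 points ± 7.14. A two-sided exact sign-flip permutation test over the 8 libraries gave p = 0.0078, the smallest it allows, and an adjusted p = 0.0148 over 17 families. The background was high: 12 of 17 families were called (70.6%), 41.2% as lower and 29.4% as higher. A family alone at the smallest p could not pass this adjustment, so the call also rests on how many other families differed. The difference stayed called with each library left out (-13.5 to -17 points), and without WT CD8 1, where TRBV30 had 3 clonotypes, it was -13.5 points. TRBV30 had the lowest mean difference of the 17 families, with TRBV17 next, and the difference between those 2 was not tested.

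TRBV26 did not share this pattern. Its TRBJ1 share was 32.0% ± 9.46, against 28.2% ± 1.69 in the other families (SD, n = 8), and it was higher in 5 of 8 libraries (exact permutation p = 0.273, adjusted p = 0.273). It ran between 18.2% and 42.9% in mutant CD8 and between 25.0% and 43.5% in WT CD8. Without single-count clonotypes the difference was 10.1 points, higher in 8 of 8 libraries (exact permutation p = 0.0078, adjusted p = 0.0208), so the call depends on the single-count entries. The 2 smaller families are described by counts only. TRBV23 used TRBJ1 in 1 of 15 clonotypes, in mutant TET 2, and in 0 of 11 in the CD8 libraries. Of those 11, 4 differed by 1 substitution from another entry of their library. The entry in mutant TET 2 had 1 count, lacked the TGCtccagc start and had a V alignment score of 30. The TRBV23 entries of the CD8 libraries scored 65 to 80. TRBV24 used TRBJ1 in 8 of 20 (40%).

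**Figure D2:**
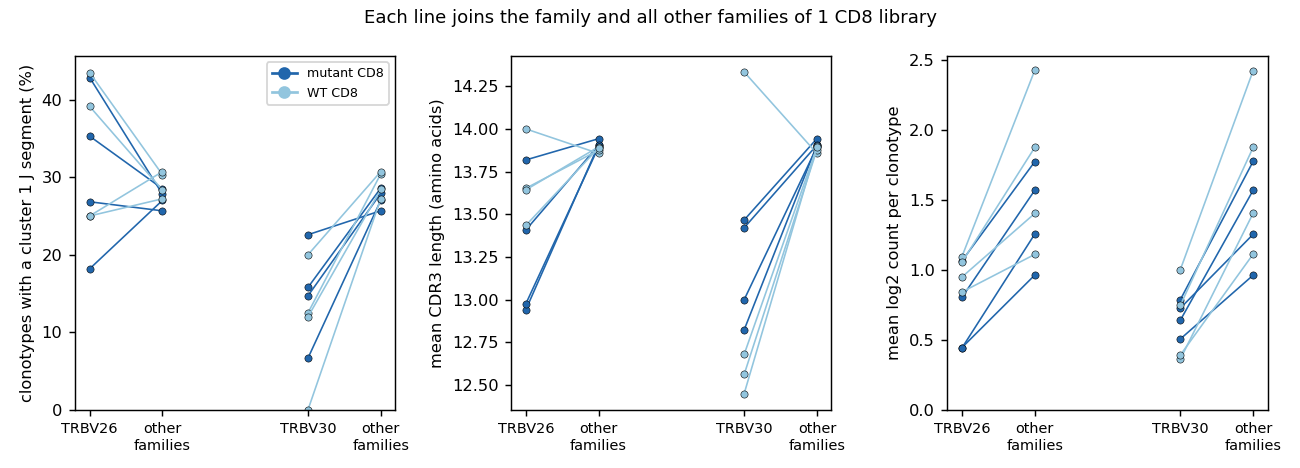
Share of clonotypes with a TRBJ1 segment (%), mean CDR3 length (amino acids, axis not starting at 0) and mean log2 count per clonotype of TRBV26 and TRBV30, each joined by a line to the value of all other families in the same CD8 library (dark blue mutant, light blue WT). TRBV30 is below the other families in all 8 libraries for TRBJ1 and for counts, and WT CD8 1 is the only library with longer TRBV30 CDR3s.

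CDR3s of both families were short. TRBV26 averaged 12.9, 13.8, 13.4 and 13 residues in the mutant CD8 libraries and 14, 13.7, 13.6 and 13.4 in the WT CD8 libraries, while the other families averaged 13.9 ± 0.025 over the 8 libraries. TRBV30 averaged 13.4, 13.5, 12.8 and 13 residues in the mutant CD8 libraries and 14.3, 12.6, 12.5 and 12.7 in the WT CD8 libraries. Both were shorter than the other families in 7 of 8 libraries, and WT CD8 1, with 8 TRBV26 and 3 TRBV30 clonotypes, was the exception for both. The mean difference was -0.41 ± 0.38 residues for TRBV26 and -0.80 ± 0.63 for TRBV30 (SD, n = 8; exact permutation p = 0.0234 and adjusted p = 0.0306 for each).

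Length differed from the rest in most families: 14 of 17 were called (82.4%), 41.2% as shorter and 41.2% as longer. TRBV20, at a mean of 13.2 residues, was shorter in 8 of 8 libraries (difference -0.68). The calls of TRBV26 and TRBV30 were both lost weighted by counts (-0.44 and -0.64 residues, adjusted p = 0.0531 for each by the exact test). Both were also lost with 6 of the 8 libraries left out in turn. By median length TRBV26 was shorter in 4 and TRBV30 in 5 of 8 libraries, and neither was called. In the pooled CD8 libraries, 12 residues or fewer were found in 38.0% of 163 TRBV30 clonotypes and 28.4% of 211 TRBV26 clonotypes, against 16.5% of 53385 in the other 15 families. Lengths of 15 residues or more were found in 9.82%, 23.7% and 34.4% in the same order. The 11 TRBV23 clonotypes in CD8 lay at both ends, 3 at 12 residues or fewer (27.3%) and 8 at 15 or more (72.7%), and TRBV24 had a median of 14.

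**Figure D3:**
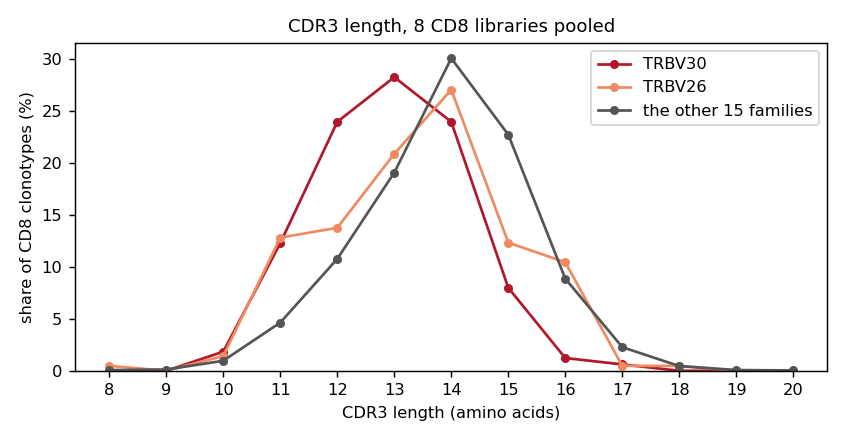
CDR3 length in amino acids (horizontal axis) and share of CD8 clonotypes (%, vertical axis) for TRBV30, TRBV26 and the other 15 families, 8 libraries pooled. TRBV30 peaks at 13 residues with 28.2% and the other families at 14 with 30.0%; TRBV26 also peaks at 14, with 27.0%, but has larger shares at 11 and 12 residues than they have.

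TRBV26 and TRBV30 clonotypes had fewer counts than those of the other families. The mean log2 count per clonotype was 0.84 for TRBV26 against 1.55 for the other families, and 0.64 for TRBV30 against 1.55. The differences were -0.71 ± 0.32 for TRBV26 and -0.90 ± 0.32 for TRBV30 (SD, n = 8), lower in 8 of 8 libraries for both (exact permutation p = 0.0078, adjusted p = 0.0102). Calls were common here, in 88.2% of the 17 families: 82.4% were called lower and 5.88%, TRBV13 alone, higher. TRBV2, at a mean of 0.64 (difference -0.91), and TRBV20, at 0.71 (-0.85), were also lower in 8 of 8 libraries. Low counts were therefore not particular to TRBV26 and TRBV30. With TRBV13 left out of the other families the differences were -0.46 for TRBV26 and -0.65 for TRBV30, still lower in 8 of 8 libraries (exact permutation p = 0.0078, adjusted p = 0.0121). Clonotypes with a single count made up 43.9% ± 17 of TRBV26 and 54.2% ± 15.3 of TRBV30, against 27.5% ± 9.37 and 27.5% ± 9.38 in the other families. In the pooled CD8 libraries they were 3 of 11 TRBV23 clonotypes (27.3%) and 11 of 19 TRBV24 clonotypes (57.9%), which were not tested. The largest clonotype in any CD8 library had 12 counts for TRBV26, 8 for TRBV30, 15 for TRBV24 and 5 for TRBV23.

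No difference between the strains was called in either measure of the CDR3. The TRBJ1 share of TRBV30 was 14.9% ± 6.52 in mutant CD8 and 11.1% ± 8.27 in WT CD8, and that of TRBV26 was 30.8% ± 10.7 and 33.2% ± 9.58 (SD, n = 4 each). Without WT CD8 1, where TRBV30 had 3 clonotypes, the WT mean of TRBV30 was 14.8% and the difference 0.10 points, against 3.81 with it. Mean length was 13.2 ± 0.32 residues in mutant CD8 and 13 ± 0.89 in WT CD8 for TRBV30, and 13.3 ± 0.41 and 13.7 ± 0.23 for TRBV26. No exact permutation p of the 2 families was under 0.171 (adjusted p = 0.583 or higher). In either measure 0% of 17 families were called, with 1 family under 0.05 before adjustment in each. The test cannot go below 0.0286 with 4 libraries against 4, which in a lone family does not pass the adjustment over 17 families.

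**Figure D4:**
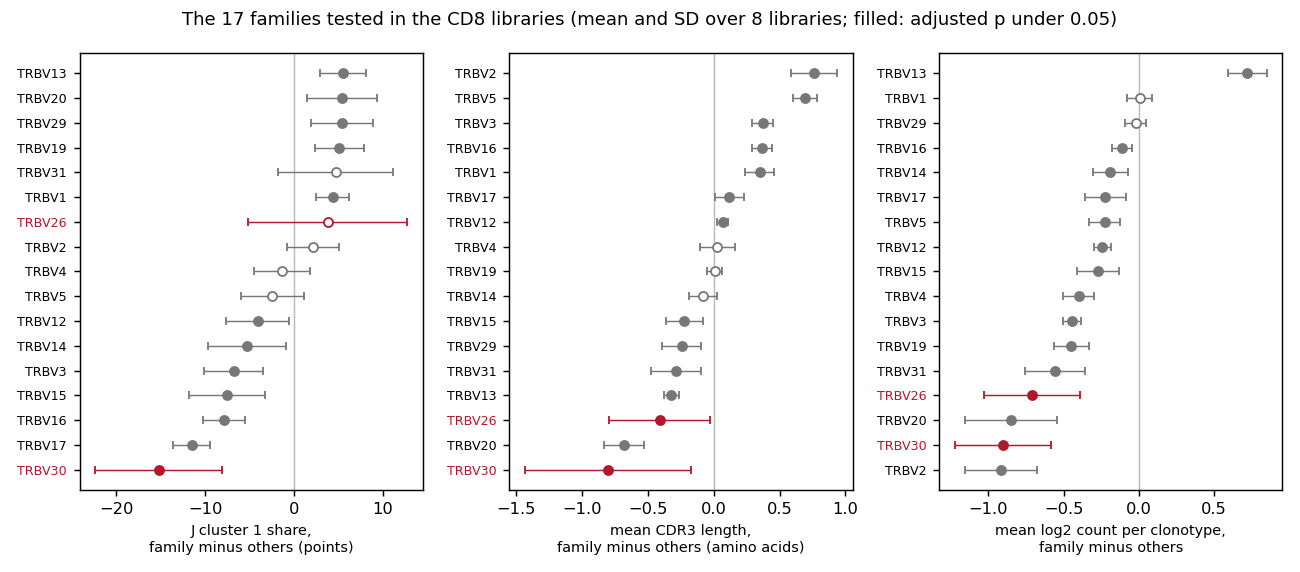
Difference between each V family and all other families of the same CD8 library (mean and SD over 8 libraries) in TRBJ1 share (percentage points), mean CDR3 length (amino acids) and mean log2 count per clonotype, for the 17 families tested. Filled points have an adjusted p under 0.05 in the exact permutation test; TRBV26 and TRBV30 (red) are among 12, 14 and 15 called families in the 3 panels, except TRBV26 in TRBJ1 share.

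The 4 families named as pseudogenes held 38 clonotypes and 47 counts, 31 of them at a single count, and their CDR3s did not look alike. TRBV10 had 28 clonotypes, TRBV21 had 5, TRBV8 had 4 and TRBV9 had 1. None of them passed the filter on low values in any comparison. TRBV10 had 0, 2, 2 and 3 clonotypes in the mutant TET libraries and 0 in WT TET. In the CD8 libraries it had 5, 5, 2 and 3 in the mutant and 1, 4, 0 and 1 in the WT mice. With all families kept, its log2 fold change was 1.34 (SE 0.73, adjusted p = 0.0993, edgeR) for TET over CD8 and 0.85 (SE 0.73, adjusted p = 0.718, edgeR) for mutant over WT in CD8. The first value fell to 0.67 without mutant TET 4 (adjusted p = 0.540, edgeR) and was 1.37 without WT TET 2 (adjusted p = 0.125, edgeR). Weighted by counts it turned to -1.68 (adjusted p = 0.0553, edgeR), so its direction was not settled.

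Every TRBV10 CDR3 lacked the cysteine codon at its start. All 28 began with gcc, and 26 of 28 with gccagc, which began none of the 58890 clonotypes of the other 15 families. In the other 15 families, 0.526% of CD8 and 0.599% of TET clonotypes had no cysteine codon at the start. Most TRBV10 CDR3s were letter for letter the CDR3 of another family without its first codon. Such a partner was found in the same library for 22 of 28 clonotypes (78.6%), 7 of 7 in TET and 15 of 21 in CD8. A partner with a TGT codon was found for 21 of them. In the other libraries of the same fraction the mean share of matches was 35.7% for the TET clonotypes and 2.04% for the CD8 clonotypes. Among the clonotypes of the other 15 families, 1.00% equalled another entry of their library once the first codon was left out. That share includes entries whose first codon matched too, and matches to TRBV10 entries.

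Pairs are shown with the codon that TRBV10 lacks in capitals, for the TET libraries in which the partner was large.
TRBV10, 1 count in mutant TET 2 and 1 in mutant TET 4: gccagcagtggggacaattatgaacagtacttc
TRBV13, 1663 counts in mutant TET 2 and 4506 in mutant TET 4: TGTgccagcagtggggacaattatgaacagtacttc
TRBV10, 2 counts in mutant TET 4: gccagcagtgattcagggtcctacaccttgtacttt
TRBV13, 7893 counts in mutant TET 4: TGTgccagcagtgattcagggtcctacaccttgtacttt
Both partners were TRBV13 clonotypes with TRBJ2 segments. The largest-count partner was a TRBV13 clonotype for 12 of the 22, a TRBV3 clonotype for 4, TRBV12 and TRBV2 for 2 each, and TRBV14 and TRBV24 for 1 each. Partners had a median of 2.5 counts and up to 7893, and they had more counts than the TRBV10 entry in 15, as many in 5 and fewer in 2. All 7 TRBV10 clonotypes in TET had a partner, and without mutant TET 4, 4 of 4 did. The 3 clonotypes of mutant TET 4, 0.763% of its clonotypes, all matched TRBV13 clonotypes.

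The largest TRBV10 clonotype had 3 counts in mutant CD8 1, against 1 count of its partner, a TRBV13 entry that began with a tryptophan codon. It is shown because it had more counts than its partner.
TRBV10, 3 counts in mutant CD8 1: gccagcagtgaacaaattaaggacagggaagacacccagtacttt
TRBV13, 1 count in mutant CD8 1: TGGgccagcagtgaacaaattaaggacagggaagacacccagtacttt
Of the 6 TRBV10 clonotypes with no partner, 2 began with the same 26 letters, in mutant CD8 1 and mutant CD8 2, which no entry of another family held. The stretch is shown because it was found in these alone, with the letters that follow gcc in capitals. The labels' protocols name a SMARTerIIA primer, whose sequence was not used here, and whether the stretch is primer or V segment sequence was not tested.
TRBV10, shared stretch: gccAAGCAGTGGTATCAACGCAGAGT
Each of the 2 had 1 count, and their deposited J alignment scores were 0 and 85. The entry of mutant CD8 1 did not end at a phenylalanine codon.

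**Figure D5:**
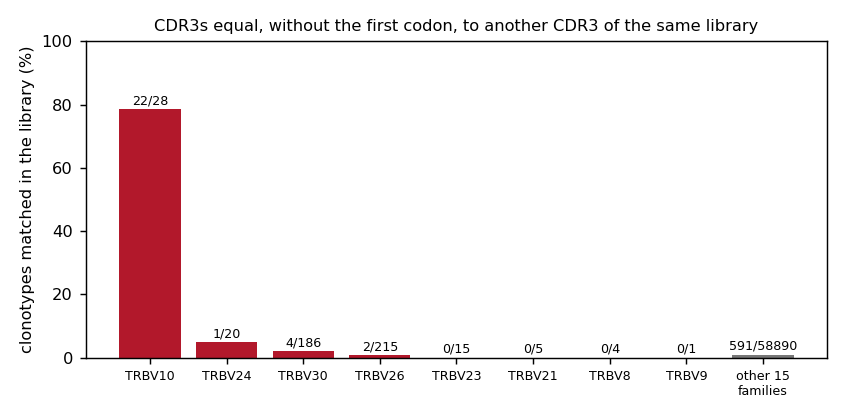
Share of clonotypes (%) whose CDR3, without the first codon (for TRBV10, as listed), equals that of another entry of the same library, for the 8 member families (red) and the other 15 families (grey). Bars carry the number matched and the number of clonotypes; TRBV10 stands at 22 of 28, the other members and the other 15 families at 5% or lower.

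TRBV8 entries had a glycine codon in place of the cysteine codon. They were 1 clonotype each in mutant TET 3, mutant CD8 1, mutant CD8 2 and WT CD8 4, all with 1 count and a TRBJ2 segment, and none matched another CDR3 of its library past the first codon. They are shown for their common first 9 letters, of which GGT is the first codon.
TRBV8, 1 count in mutant TET 3: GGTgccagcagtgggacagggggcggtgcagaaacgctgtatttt
TRBV8, 1 count in mutant CD8 1: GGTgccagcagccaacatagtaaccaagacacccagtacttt
That start was found in 4 of 4 TRBV8 entries and in 5 of the 58890 clonotypes of the other 15 families, 4 of them TRBV13 and 1 TRBV5.

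TRBV21 and TRBV9 entries had the cysteine codon. TRBV21 had 2, 1, 0 and 1 clonotypes in the mutant CD8 libraries and 0, 1, 0 and 0 in the WT CD8 libraries, none in TET, with 1 to 3 counts each and TRBJ2 in all 5. Weighted by counts TRBV21 was called lower in TET (adjusted p = 0.0391, edgeR), against 0 counts there, but by clonotypes it was not (adjusted p = 0.403, edgeR). The largest is shown for the start that all 5 shared, TGTgctagc.
TRBV21, 3 counts in mutant CD8 1: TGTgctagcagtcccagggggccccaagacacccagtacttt
The same 9 letters began 3275 TRBV29 and 2184 TRBV17 clonotypes, so they do not set TRBV21 apart. The TRBV21 alignments had a median score of 65, as did those of the other 15 families in CD8, while TRBV10 had 41 in CD8 and 50 in TET. The single TRBV9 entry, with 1 count in mutant CD8 3 and a score of 46, differed by 1 substitution from a TRBV3 clonotype with 2 counts in that library, and the same nucleotide CDR3 was listed as TRBV15 in WT CD8 3.
TRBV9, 1 count in mutant CD8 3: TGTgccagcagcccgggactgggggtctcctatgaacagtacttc
TRBV3, 2 counts in mutant CD8 3: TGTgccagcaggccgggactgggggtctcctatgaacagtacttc

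Entries of the rare families with no cysteine codon were few. They were 2 of 211 TRBV26, 3 of 163 TRBV30 and 1 of 19 TRBV24 clonotypes in CD8 libraries, and none in TET. All 3 TRBV30 entries began with the arginine codon CGT and had 1 count. The TRBV24 entry, with 1 count in mutant CD8 3, was also the partner of a TRBV10 entry with 2 counts, and both are shown because their V calls differ over the same remaining letters.
TRBV24, 1 count in mutant CD8 3: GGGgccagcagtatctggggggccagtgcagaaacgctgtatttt
TRBV10, 2 counts in mutant CD8 3: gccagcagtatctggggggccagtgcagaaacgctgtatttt
A V score of 0 was given to 1 TRBV26 entry, with 2 counts in mutant CD8 4, which began with a proline codon.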

How the data were processed

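Per the labels' protocols, RNA of sorted cells was reverse transcribed from the TCRβ constant region by 5'RACE, 9-nt molecular identifiers were added, and nested PCR products were read on a MiSeq instrument. For each library the authors deposited a table with a count, a fraction of a larger library total, V and J calls, alignment scores and the CDR3 of each entry. Whether a deposited count is a read or a molecule is not stated, and the aligner is not given in the sources used here. The deposited score of the V alignment was used as given. Of the deposited entries, 4 of alpha chain segments (6 counts) were left out, and none was out of frame or held a stop. The WT TET library of the fourth mouse was not analysed here.

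Members, lists and tests were chosen with earlier results of these data known. Clonotypes per V family were tested with edgeR 4.0.16 (R 4.3.3, common dispersion, quasi-likelihood, filterByExpr minimum count 10, Benjamini-Hochberg over all families tested), with DESeq2 1.42.0 as an alternative. SEs were computed as the log2 fold change over the square root of F. Families were compared with the other families of the same library by two-sided exact sign-flip permutation tests over the 8 CD8 libraries (256 assignments), and strains by exact permutation over 70 splits. The edgeR test and the sign-flip test were run on simulated data, the sign-flip test with shifts in common families only. The test over 70 splits was not run on simulated data. The named families were all members, plus, for each tested member, the family most alike in share, and the superantigen list. Named CDR3s were those in 2 or more libraries, the largest of each member and pseudogene entries above 1 count; other CDR3s were chosen after their values were seen. The design text names 4 mice of each strain as the source of both fractions, so same-numbered TET and CD8 libraries were taken as 1 mouse. Their deviations from the group means over 15 families correlated with r of -0.122, 0.102, 0.369 and -0.0302 in mutant and 0.129, -0.318 and 0.63 in WT mice. CDR3 sequences are those of the deposited tables.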

Additional observations from a re-analysis of the deposited data

Results flagged for a closer look

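Values are listed here where 1 library of a group of 4 lay far from the other 3 by Dixon's test, in which the gap to the nearest library exceeded the critical share of the group's range. By chance about 1 group in 20 is picked out, and in groups where 3 libraries were at 0 any entry in the fourth is picked out.

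TRBV23 made up 1.48% of the counts of mutant TET 3, against 0.00445% or lower in the other mutant TET libraries, and 319 of its 326 counts there were 1 clonotype. In mutant CD8 3, of the same mouse, TRBV23 made up 0.0445% of counts, against 0.0068% or lower in the other mutant CD8 libraries. WT CD8 1 was picked out 3 times: TRBV24 made up 0.0980% of its clonotypes, from 2 clonotypes, TRBV30 made up 0.147%, and the mean CDR3 length of its 3 TRBV30 clonotypes was 14.3 residues. It was also the CD8 library with the fewest clonotypes, and the part of depth in these values was not tested. TRBV10 made up 0.763% of the clonotypes of mutant TET 4, from 3 clonotypes with a partner in that library.

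The other entries were 1 clonotype in 1 library of 4. TRBV24 in mutant TET 2 made up 0.0455% of clonotypes and 0.00891% of counts. TRBV21 in WT CD8 2 made up 0.0188% of clonotypes and 0.00718% of counts. TRBV8 made up 0.0613% of clonotypes and 0.00455% of counts in mutant TET 3, and 0.0116% and 0.00412% in WT CD8 4. TRBV9 in mutant CD8 3 made up 0.0103% of clonotypes and 0.00405% of counts.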

How the results depend on the processing

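Of the alternatives run, 328 gave the direction and side of the threshold of the reported value (or a count within 1.5 times), 16 lost the threshold, 4 newly passed it, 13 turned the direction and 11 moved a count further. The number of V families called between TET and CD8 was 13, and 6 in the WT libraries alone. Between mutant and WT TET it was 1 and came to 0 with TMM factors, without the filter, weighted by counts, without single-count clonotypes and with the replicate number as a block (0 to 2 with each library left out). In that order 3, 4, 0, 0 and 1 families were under 0.05 before adjustment by edgeR, and DESeq2 called 1. The replicate block on the mouse left TRBV26 lower in TET (-2.39, adjusted p = 0.000883, edgeR) and changed no other call of a member. Between strains, where the samples share only a number, the replicate block gave 0.21 for TRBV26 and 0.19 for TRBV30 in CD8.

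The direction of TRBV26 turned in mutant against WT CD8 without single-count clonotypes (-0.23) and in TET against CD8 in the WT libraries alone (0.77). The latter value rests on 2 single-count clonotypes of WT TET 2. That of TRBV30 in TET against CD8 turned in the WT libraries alone (-6.23, a fitted value against 0 clonotypes and no bound), weighted by counts (-2.60), and ran from -0.18 to 0.65 with each library left out. TMM factors moved it from 0.36 to 0.01. In TET against CD8, TRBV10 turned weighted by counts (-1.68) and in the WT libraries alone (-2.997), where TRBV23 turned too (-2.99), both fitted against 0 clonotypes. TRBV10 ran from 0.67 to 1.65 and TRBV23 from 1.39 to 2.67 with each library left out. Weighted by counts, TRBV24 (-3.68) and TRBV21 (-3.57, a fit against 0 counts and no bound) were called, and TRBV24 turned without single-count clonotypes (0.60). The TRBJ1 share of TRBV26, mutant minus WT, turned to 4.63 points without single-count clonotypes and ran from -6.38 to 1.84 points with a library left out, that of TRBV30 from 0.10 to 6.77 points, and the length of TRBV30 from -0.014 to 0.61 residues. The TRBJ1 share of TRBV26 against other families was called only without single-count clonotypes (10.1 points).

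By median length 0 of 17 families were called by the exact test (3 before adjustment), against 14 by mean length. TRBV26 and TRBV30 were -0.44 and -0.69 residues by median and -0.44 and -0.64 weighted by counts, none called, and ran from -0.49 to -0.33 and from -0.99 to -0.71 with a library left out, with fewer assignments then available. TRBV30 could not be tested with a minimum of 5 clonotypes per library or without single-count clonotypes. The causes of the other changes were not tested. Depth limits the rare families in WT TET, where 0 clonotypes allows a share of up to 0.923%.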
